A study of Caenorhabditis elegans with 2 samples.

Results

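The regions described here are ChIP-seq peaks of the homeodomain protein CEH-19 that lie at small nucleolar RNA (snoRNA) genes of Caenorhabditis elegans. A region was taken from the peak list called on both libraries together. It counted as a member when its summit, the base of highest signal, lay on a nuclear chromosome within 500 bp of a snoRNA gene. The summit also had to lie over 200 bp from every tRNA and snRNA gene, with all classes as annotated. There were 240 members among 29977 nuclear regions. A further pair of regions met the snoRNA distance and was left out. One of them, at C16D9.10 with a signal value of 46.1, lay 176 bp from a tRNA gene, and the other, at smy-2 with 31.7, lay 134 bp from the snRNA gene smy-1.

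The animals were of strain OP739, which carries the transgene wgIs739 a fusion gene of ceh-19 with the TY1, EGFP and 3xFLAG tags, plus unc-119(+), in the mutant unc-119(tm4063). Whole late embryos of mixed sex, labelled as 5 hour old, were sonicated, and the tagged protein was pulled down by an anti-GFP antibody with the DNA attached to it. There were 2 biological replicates, numbered 2 and 3, in a single group, and no comparison between conditions was possible. No peak list from animals without the tagged transgene was analysed here. Both replicates were called against the same control file, per the text deposited with the lists, so features of that control touch both lists. Whole animals were used, so a strong signal in few cells and a weak signal in many cannot be told apart.

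snoRNAs guide the chemical modification of ribosomal and spliceosomal RNAs. Box C/D snoRNAs direct methylation of the ribose, and box H/ACA snoRNAs direct the change of uridine to pseudouridine. Many animal snoRNAs are cut out of introns of host genes, while others are transcribed from promoters of their own. RNA polymerase III reads tRNA genes from a pair of internal promoter elements called the A box and the B box, and in budding yeast a snoRNA gene is transcribed by the same polymerase from such boxes placed before the mature RNA. CEH-19 is known in C. elegans for its role in pharyngeal motor neurons, and homeodomains commonly bind DNA around the letters TAAT.

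The bases before the strongest members are shown because most of them held a short word of the A box, the B box or both. Each line runs 5′ to 3′ on the strand of the snoRNA gene, from 90 bases before its annotated 5′ end to base 14 of the gene, counted from 0, and was read from the RefSeq genome of build WBcel235 (ce11). Capitals mark every match before the 5′ end to the short A box word TGGNNNA and to the short B box word GTTCNA, where N is any base. Both short words were chosen after the sequences had been seen. The first pair of lines belongs to the same region, whose summit lay inside C51F7.4 with C51F7.3 next to it. The lines are in falling order of signal value, and ZK265.10 and T02E1.9, the sixth and the eighth strongest members, have no line.
C51F7.4 (chrV:12303509-12303613, + strand): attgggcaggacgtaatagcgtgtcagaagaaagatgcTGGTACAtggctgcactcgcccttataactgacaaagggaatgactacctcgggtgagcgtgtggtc
C51F7.3 (chrV:12303618-12303722, + strand): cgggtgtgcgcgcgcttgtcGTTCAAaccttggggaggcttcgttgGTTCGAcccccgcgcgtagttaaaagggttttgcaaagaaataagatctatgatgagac
W03C9.9 (chrII:11960808-11960912, + strand): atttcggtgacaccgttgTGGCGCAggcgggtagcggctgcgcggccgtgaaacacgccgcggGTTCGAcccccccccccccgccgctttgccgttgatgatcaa
T06C12.16 (chrV:15873912-15874016, - strand): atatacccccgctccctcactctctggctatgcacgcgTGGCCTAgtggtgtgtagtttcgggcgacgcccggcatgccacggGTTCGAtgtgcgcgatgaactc
ZK994.7 (chrV:8500489-8500593, + strand): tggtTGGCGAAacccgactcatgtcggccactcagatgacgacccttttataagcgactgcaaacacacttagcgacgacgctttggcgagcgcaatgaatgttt
T03F7.8 (chrV:11314168-11314272, + strand): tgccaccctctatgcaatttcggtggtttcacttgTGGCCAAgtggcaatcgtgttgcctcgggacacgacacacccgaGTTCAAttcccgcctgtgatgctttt
Y43F8C.22 (chrV:19643173-19643277, - strand): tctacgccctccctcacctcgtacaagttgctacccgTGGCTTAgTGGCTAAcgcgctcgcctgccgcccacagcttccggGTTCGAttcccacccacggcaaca
C04G6.12 (chrII:5105217-5105321, - strand): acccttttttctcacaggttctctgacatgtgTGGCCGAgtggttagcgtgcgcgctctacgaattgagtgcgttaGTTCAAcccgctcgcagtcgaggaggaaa
D1046.6 (chrIV:8927175-8927279, + strand): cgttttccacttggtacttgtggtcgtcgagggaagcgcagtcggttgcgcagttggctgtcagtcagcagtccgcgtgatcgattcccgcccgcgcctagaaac
C27H5.9 (chrII:7184064-7184168, - strand): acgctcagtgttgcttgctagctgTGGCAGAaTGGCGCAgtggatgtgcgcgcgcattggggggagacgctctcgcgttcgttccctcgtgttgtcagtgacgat
C27H6.5 (chrV:9970257-9970361, - strand): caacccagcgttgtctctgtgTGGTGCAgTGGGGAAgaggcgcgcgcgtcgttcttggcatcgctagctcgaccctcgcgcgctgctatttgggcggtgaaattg

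The 3 strongest members outside the reproducible list, described further on, are shown for contrast on the same scale and with the same capitals.
K02C4.8 (chrII:8075419-8075523, + strand): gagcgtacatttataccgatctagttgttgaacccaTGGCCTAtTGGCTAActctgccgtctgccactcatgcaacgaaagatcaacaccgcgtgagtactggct
T26A8.6 (chrIV:8428725-8428829, - strand): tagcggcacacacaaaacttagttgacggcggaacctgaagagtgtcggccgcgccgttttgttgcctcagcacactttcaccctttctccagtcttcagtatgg
C08D8.3 (chrV:8349018-8349122, + strand): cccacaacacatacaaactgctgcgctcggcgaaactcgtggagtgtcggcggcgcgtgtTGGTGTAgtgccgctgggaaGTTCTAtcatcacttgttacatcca

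In the first set, T03F7.8 and C04G6.12 held an A word that starts 55 and 58 bases before the gene and a B word that starts 11 and 14 bases before it. T06C12.16 held them at 52 and 7 bases. In the printed bases before the gene, C51F7.4, ZK994.7, D1046.6, C27H5.9 and C27H6.5 held no B word on that strand. C51F7.3 and D1046.6 held no A word there. The B words before C51F7.3 lie inside C51F7.4, past the end of its line. In the contrast set K02C4.8 held only the A word, T26A8.6 held neither, and C08D8.3 held both, but with the A word only 30 bases before the gene.

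The signal value of a peak, as deposited, ran from 29.8 to 952.6 over the 240 members, with a median of 57.8. Over all nuclear regions the median was 42.2 and the highest value 1144. Members made up 6 of the 10 strongest nuclear regions, 19 of the 50 strongest and 28 of the 100 strongest. The deposited reproducible list, which the authors derived from the pooled list and both replicate lists, holds 1112 regions, and these were the strongest regions of the pooled list. A reproducible region is therefore also a region above a given signal, and counts by reproducibility and by signal are not separate evidence. Of the 240 members, 58 were reproducible, or 24.2% (exact 95% interval 18.9 to 30.1%, counting error only), against 3.64% of all nuclear regions. Among 426 regions at tRNA genes the share was 39.4% (34.8 to 44.3%), and among 41 regions at snRNA genes it was 24.4% (12.4 to 40.3%). The median signal was 273 in the reproducible members, 48.6 in the other 182 and 152.2 in all 1091 nuclear reproducible regions.

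The strongest member lay in an intron of frm-7, a gene for a FERM domain protein, 44 bp inside the snoRNA gene C51F7.4 on chromosome V. Its signal value was 346.2 in replicate 2, 607.1 in replicate 3 and 952.6 in the pooled list. W03C9.9 on chromosome II, an intergenic snoRNA gene of 62 bp, had 368.7, 550.8 and 918.7 in the same lists, with the summit 63 bp upstream of the gene. These 2 members stood above all other snoRNA regions in each list.

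T06C12.16 on chromosome V, also intergenic, had 329.8 in replicate 2, 502.0 in replicate 3 and 844.4 pooled. ZK994.7 lay in an intron of pxn-1, a peroxidasin gene of the extracellular matrix, and had 298.6, 469.9 and 769.4. T03F7.8 lay in an intron of cutl-18, which is transcribed from the opposite strand and encodes a cuticlin-like protein, and had 322.9, 420.9 and 742.2. The strongest member on chromosome I, at the intergenic gene ZK265.10, had 320.0, 380.3 and 690.5. All 6 of these regions were thus high in both libraries, with replicate 3 above replicate 2 at each.

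Below them the pooled signal of the 20 strongest members fell to 378.4 at C41C4.11. In this group Y43F8C.22 had 231.7 in replicate 2 and 317.0 in replicate 3, C04G6.12 in mpk-2, a MAP kinase gene, had 197.9 and 270.1, and D1046.6 in cfim-2, a gene for a subunit of the pre-mRNA cleavage factor, had 192.5 and 275.2. C27H5.9, C27H6.5 and C10C6.8 lay in introns of pdl-1, unc-41 and catp-8, of which unc-41 is known for synaptic vesicle recycling. Their values in replicate 2 were 170.2, 199.4 and 153.5, and in replicate 3 they were 266.1, 225.0 and 242.8. Of the 20 strongest members 11 lay in introns, and all 20 were higher in replicate 3, by 1.128-fold at C27H6.5 to 2.324-fold at F55A11.10, with a median of 1.466-fold.

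**Figure D1:**
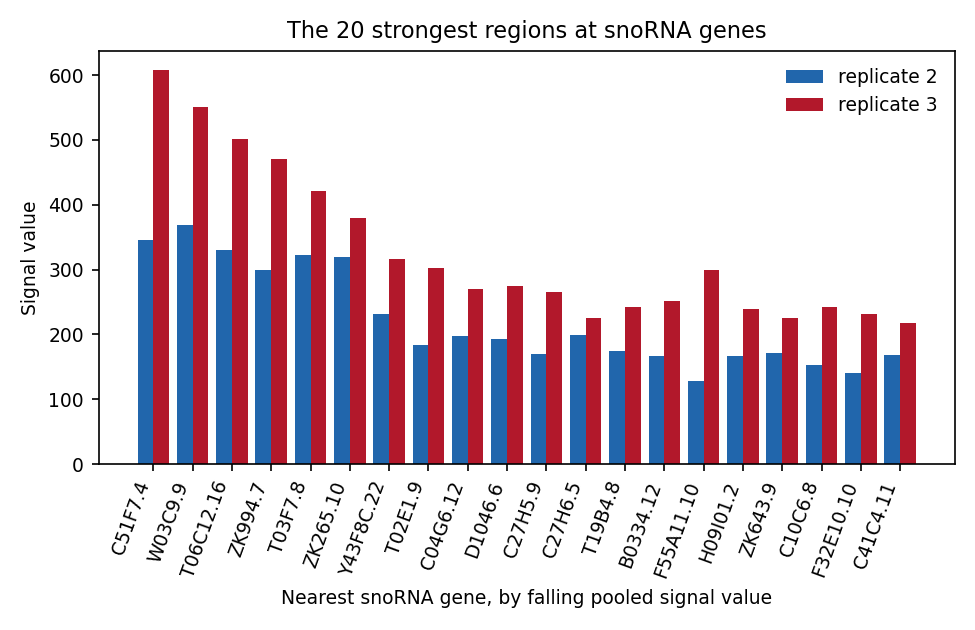
Signal value (linear axis) of the 20 strongest regions at snoRNA genes in replicate 2 and replicate 3, ordered by their pooled signal. Each bar is 1 library, and replicate 3 is the higher bar at all 20 regions, with the highest ratio at F55A11.10 (128.5 and 298.6).

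At the lower end of the reproducible members stood D2021.6 (pooled signal 123.8), F37F2.4 (114.7) and Y24D9A.9 (113.2). The next members, at K02C4.8 (112.8), T26A8.6 (112.2) and C08D8.3 (109.6), were outside that list, so the step between the classes was small. T26A8.6 had 74.9 in replicate 3 and no matched summit in replicate 2. At the edge of the 500 bp window, members just inside it at 494, 487 and 485 bp had signal values of 31.2, 31.2 and 35.9. Regions just outside it at 501, 505 and 506 bp had 60.1, 46.3 and 121.6.

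Replicate agreement was followed by matching the summits of the pooled list to those of each replicate list within 100 bp. Both replicates held a matched summit for 107 of the 240 members, or 44.6% (38.2 to 51.1%), against 25.0% of all nuclear regions. All 58 reproducible members were matched in both, as were 1004 of all 1091 nuclear reproducible regions (92%). The replicate lists were used to derive the reproducible list, so a high share of matches there is not separate evidence. Of the other 182 members 49 were matched in both (26.9%, 20.6 to 34%), which is close to the share of all regions. Neither replicate held a match for 28 members, a count not made over all nuclear regions. Over the 107 matched members the signal in replicate 3 was a median 1.430-fold that in replicate 2 (log2 0.52, SD 0.47 across members). Over all 7506 matched nuclear regions it was 1.303-fold. It was 1.514-fold over the 58 reproducible members and 1.176-fold over the 49 matched others. Over the 1004 matched nuclear reproducible regions it was 1.470-fold, close to that of the reproducible members. The depth of the libraries is unknown from these files, and its part in this ratio was not tested.

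Of the 58 reproducible members 55 were higher in replicate 3, a count not made over all reproducible regions. The exceptions were C14C10.8 with 82.0 in replicate 2 and 73.5 in replicate 3, C26C6.13 with 99.6 and 91.3, and C01B10.48 with 131.1 and 125.4. The largest ratios among the reproducible members were those of F59C6.15, which had 74.6 in replicate 2 and 187.2 in replicate 3, Y24D9A.9 with 31.3 and 74.4, and F55A11.10 with 128.5 and 298.6. Across regions, Spearman's rho between the replicates was 0.909 over all 107 matched members, 0.911 over the 58 reproducible ones and 0.298 over the 49 others. These are descriptions across regions that share libraries and a control. In both replicate lists 54 of the 58 were also among the 1112 strongest regions, the exceptions being H04D03.5, D2021.6, F37F2.4 and Y24D9A.9. This was not counted over all reproducible regions, so whether it is unusual is unknown.

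**Figure D2:**
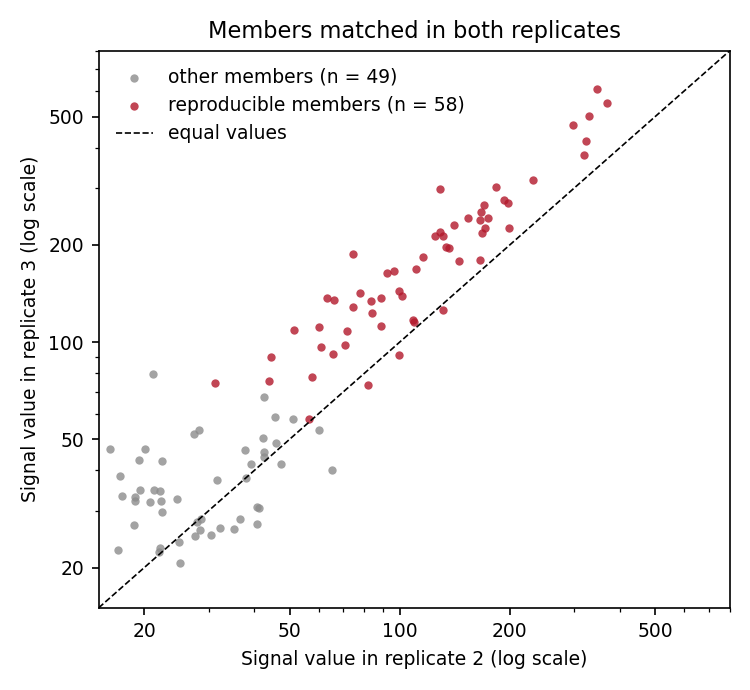
Signal value in replicate 2 against replicate 3 (both axes logarithmic) for the 107 members with a matched summit in both lists, with the 58 reproducible members in red, the 49 others in grey and equal values as a dashed line. Red points lie above the line at 55 of 58 members, while the grey points form a cloud at low signal.

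The reproducible members sat just upstream of the snoRNA genes. Measured along the strand of the gene, their summits had a median position of -50.5 bp from the annotated 5′ end, with quartiles at -63.8 and -28.8 bp. By side, 51 of the 58 lay upstream, 6 inside and 1 downstream. Summits from -100 to -1 bp made up 43 of 58 reproducible members (74.1%, 61 to 84.7%) and 25 of the 182 others (13.7%, 9.09 to 19.6%). Those others were spread over the window, with 90 upstream, 21 inside and 71 downstream and a median position of 7.0 bp.

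In steps of 50 bp, the median signal was 200.8 over the 32 members from -100 to -51 bp and 201.2 over the 36 members from -50 to -1 bp, of which 21 and 22 were reproducible. In every other step from -500 to 749 bp that held a member the median was between 33.7 and 76.9. The second of these values belongs to the step from 0 to 49 bp, which held C51F7.4 and ZK994.7. The 1 reproducible member downstream of its gene was B0334.12 in an intron of twk-5, a potassium channel gene on the opposite strand. It had 166.5 in replicate 2, 252.2 in replicate 3 and 420.8 pooled, with its summit 142 bp after the 5′ end of the snoRNA gene.

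**Figure D3:**
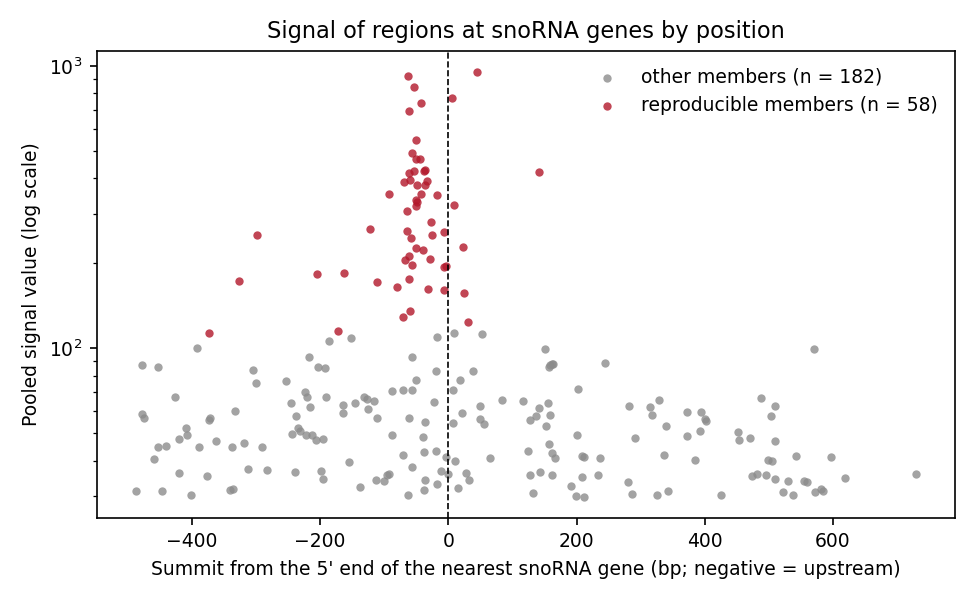
Pooled signal value (logarithmic axis) of the 240 members against the position of the summit from the 5′ end of the nearest snoRNA gene, with negative positions upstream; reproducible members (58) are red and others (182) grey. Most red points (43 of 58) stand in a narrow band before the dashed line at the 5′ end, although the highest value, 952.6 at C51F7.4, lies 44 bp after it. Points elsewhere are mostly grey and low.

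The 43 reproducible members with a summit from -100 to -1 bp had signal values from 129.2 to 918.7 with a median of 330.4. The other 15 had values from 113.2 to 952.6 with a median of 184.0. Among these 15, C01B10.48, Y24D9A.9 and F37F2.4 had summits 298, 373 and 172 bp upstream of the snoRNA gene and lay in the promoter of a protein-coding gene, taken as 500 bp before to 100 bp after its start. In all, 4 of the 15 and 7 of the 43 lay in such a promoter. Of the 182 weaker members 42 had a stronger region within 300 bp, by any margin, and for 37 of them that region was itself a member. A part of the weaker members were thus neighbours of stronger ones, which need not be reproducible. None of the 58 reproducible members had a stronger region within 300 bp.

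Host introns and intergenic DNA held reproducible members in shares whose intervals overlap. By the place of the summit, 91 members lay in an intron, 41 in an exon and 108 between genes, and 27, 1 and 30 of them were reproducible. The shares were 29.7% for introns (20.5 to 40.2%), 2.44% for exons (0.0617 to 12.9%) and 27.8% for intergenic DNA (19.6 to 37.2%). Median signal values were 59.6, 42.4 and 63.5. Among reproducible members alone the medians were 320.8 in introns and 259.2 between genes, with wide and overlapping ranges of 129.2 to 952.6 and 113.2 to 918.7. The 1 exonic reproducible member was C14C10.8 in ril-2, with 157.4.

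Intronic members were also divided by the strand of the host, and the shares again had overlapping intervals. The host ran on the strand of the snoRNA gene for 69 of the 91, of which 20 were reproducible (29%, 18.7 to 41.2%). It ran on the opposite strand for 22, of which 7 were (31.8%, 13.9 to 54.9%). A snoRNA whose host runs the other way cannot be cut from that host's RNA, and T03F7.8, C04G6.12 and C27H5.9 were among the strongest of these.

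Hosts were also sorted by function. Ribosomal protein genes, classical hosts of snoRNAs in animals, made up 13 of the 151 hosts of all intronic snoRNA genes, 9 of the 84 hosts of members and 1 of the 26 hosts of reproducible members. The last was rpl-7A, host of Y24D9A.9, the weakest reproducible member. The summit of that member lay outside protein-coding genes, 373 bp upstream of the snoRNA gene and in a coding promoter, and not in the host intron. Of translation factors and tRNA synthetases, only fars-1, for a phenylalanyl-tRNA synthetase subunit, was the host of a reproducible member. The snoRNP protein gene nol-56 and, among splicing genes chosen by name prefix, prp-8 host snoRNA genes without a member. The splicing factor gene uaf-1, outside that list and named after its values were seen, hosts Y92C3B.4, which had a member with a signal of 58.1. The gene uaf-2, also outside that list, hosts Y116A8C.50, which had no member.

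Counted by gene, 190 of the 346 nuclear snoRNA genes had a member within 500 bp and 60 had a reproducible one (17.3%, 13.5 to 21.8%). The number of genes exceeds the number of reproducible members because a window can hold 2 genes. Reproducible members were found at 28 of 169 genes inside introns, 25 of 124 intergenic genes and 7 of 53 that overlap exons or could not be placed in either class. Among genes in introns they were found at 20 of 142 with a host on the same strand (14.1%, 8.82 to 20.9%) and 8 of 27 with a host on the opposite strand (29.6%, 13.8 to 50.2%); the intervals overlap.

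By chromosome, 15 of 59 members were reproducible on I, 13 of 53 on II, 6 of 32 on III, 12 of 45 on IV, 11 of 32 on V and 1 of 19 on X. The share on X was 5.26% (0.133 to 26%), and its only reproducible member, D2021.6, had 43.9 in replicate 2, 75.6 in replicate 3 and 123.8 pooled. The strongest member of chromosome III, ZK643.9, had 171.4, 225.5 and 392.1 in the same lists. The intervals of the X chromosome and of each autosome overlap.

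**Figure D4:**
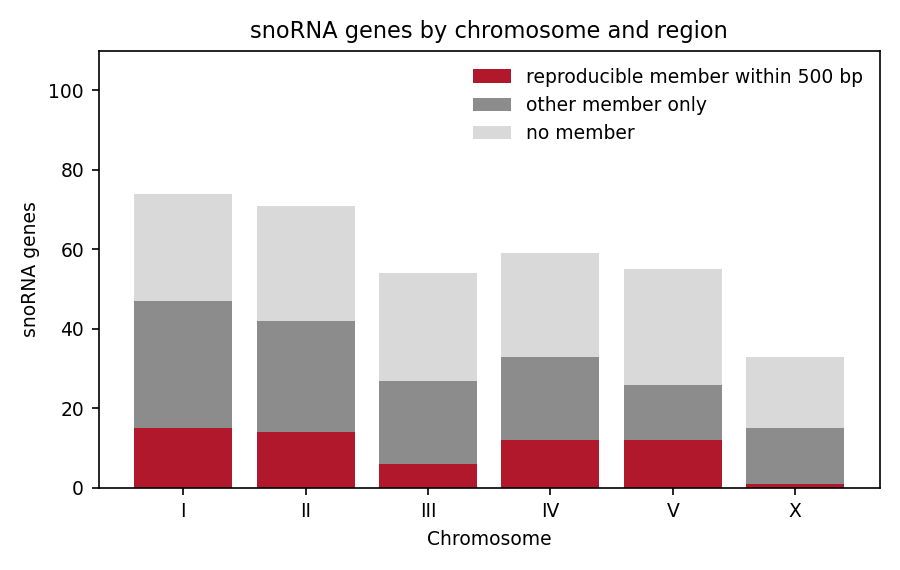
Number of snoRNA genes on each chromosome, divided into genes with a reproducible member within 500 bp (red), with other members only (grey) and with no member (light grey). Reproducible members occurred at 15 of 74 genes on I and 1 of 33 on X.

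Promoter words of RNA polymerase III were then counted within 50 bp of each summit on both strands. The B box core word GTTCNANNC lay at 21 of the 58 reproducible members (36.2%, 24 to 49.9%), at 4 of the 182 others (2.2%, 0.602 to 5.53%), at 4.06% of all nuclear regions and at 11.2% of all reproducible ones. At tRNA gene regions, whose genes hold the B box, the share was 41.1%. It was found at 0 of 41 snRNA gene regions, which allows a share of up to 8.6%. The A box core word TGGCNNAGT lay at 12 of the 58 (20.7%, 11.2 to 33.4%) and at 4 of the 182 others. It lay at 1.46% of all nuclear regions, 4.22% of all reproducible ones and 6.57% of tRNA gene regions. The tRNA gene regions were not split by reproducibility. Over all 240 members the share was 10.4% for the B word and 6.67% for the A word. At least one of the core words was present at 25 of the 58 and at 8 of the 182. A match is a description of the letters and not of a bound site.

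The homeodomain core word TAAT was less frequent at the reproducible members. It lay at 8 of 58 (13.8%, 6.15 to 25.4%), at 100 of the 182 others (54.9%, 47.4 to 62.3%), at 51.5% of all nuclear regions and at 33% of all reproducible ones. The longer word TAATTA lay at 0 of 58 and at 9 of the 182, and the same counts were found for TAATTG; 0 of 58 allows a share of up to 6.16%. The first of these longer words lay at 3.38% of all nuclear regions and at 1.65% of all reproducible ones. For the second the shares were 6.31% and 3.39%. Both shares of the reproducible regions lie below 6.16%, so the count of 0 of 58 shows no lack against them. Base composition moved with the counts of these words. The median share of G and C within 50 bp of the summit was 53.5% at reproducible members, 40.6% at the others and 41.6% at all nuclear regions. It was 50.5% at all nuclear reproducible regions and 48.5% at tRNA gene regions, so a high share was not particular to the snoRNA members. Its part in the counts was not tested.

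On the gene strand the core words stood within narrow spans before the genes. Before the 60 genes with a reproducible member there were 24 starts of the B word in the 200 bases upstream, of which 22 lay from -27 to -9 bp, and the median was -14.5 bp. The 13 starts of the A word lay from -67 to -52 bp, with a median of -58 bp. On the opposite strand of the same 200 bases the B word was found before 3 of the 60 genes and the A word before 1. The B words outside the narrow span were a pair before C51F7.3, at -70 and -44 bp.

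**Figure D5:**
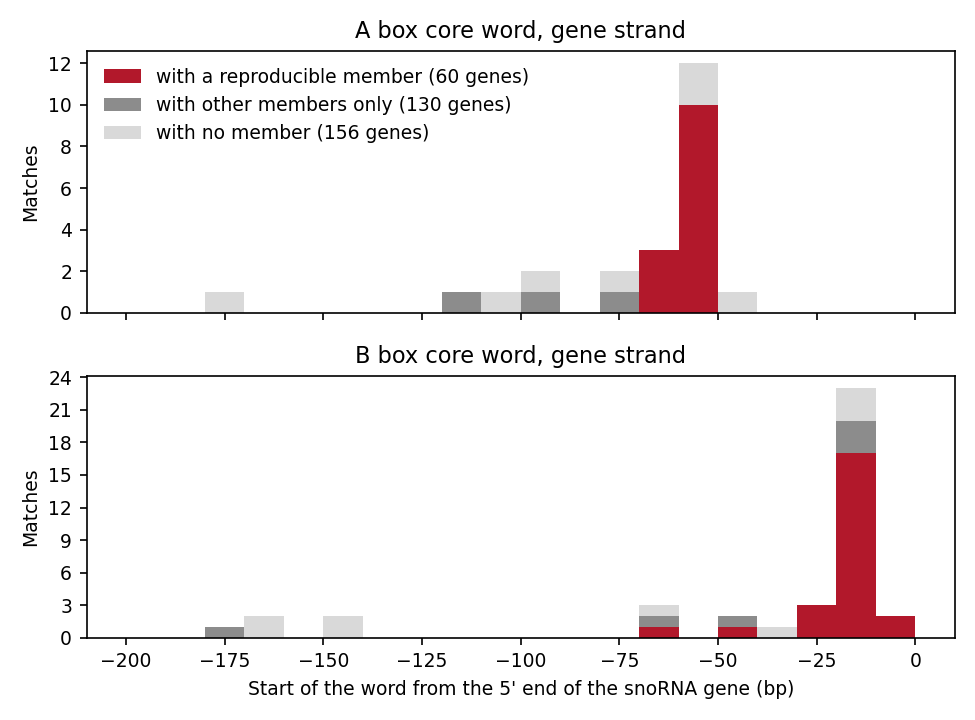
Starts of the A box core word (upper panel) and the B box core word (lower panel) in the 200 bases before all 346 snoRNA genes on the gene strand, in bins of 10 bases, stacked by whether the gene had a reproducible member (red), other members only (grey) or none (light grey). Matches gather in a band around -58 bp for the A box and around -14.5 bp for the B box, and most matches in these bands belong to genes with a reproducible member.

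With the short words used in the printed sequences, TGGNNNA starting from -80 to -41 bp and GTTCNA within the last 40 bases, both were found before 23 of the 60 genes with a reproducible member (38.3%, 26.1 to 51.8%). They were found before 1 of 130 genes with other members only, 4 of 156 with no member and 68 of 19973 protein-coding genes (0.34%). These words and spans were set after seeing the genes with strong regions, so the counts describe them and give no independent support. The starts of the 2 words lay a median 44 bp apart, with a range of 36 to 62 bp.

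Read from the words, 28 snoRNA genes had both, and 23 of these had a reproducible member (82.1%, 63.1 to 93.9%). Of 251 genes with neither word 16 did (6.37%, 3.69 to 10.1%). By location, the count among genes with both words was 11 of 15 inside introns and 10 of 11 between genes. Among those with neither word it was 7 of 121 and 8 of 91. Because the words were fitted to genes with strong regions, these counts restate that choice and give no independent support. The 5 genes with both words and no reproducible member were R12E2.17 in rpn-8, a proteasome gene, which had a weaker member, and Y6B3B.15 in lagr-1, T23B12.13 in mrps-2, K07C5.12 in nol-56 and Y59E1B.14, which had none.

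The short words were also counted by the position of the summit, with the same limit. Of the 43 reproducible members with a summit from -100 to -1 bp, 38 had at least 1 of the short words before the nearest gene and 23 had both. Of the other 15, 6 had at least 1 and 0 had both.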

How the data were processed

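Peak lists were analysed from CEH-19 ChIP-seq of 2 biological replicates. Per the text deposited with the lists, the authors called peaks on each replicate and on both together, each time with the same control file, and derived a reproducible list from the 3 lists; coordinates are of build ce11. Each deposited peak carries a signal value, of unstated scale, and a q-value as -log10 q; across members the latter ran from 0.03 to 2.71. Signal was used as deposited. Which aligner and peak caller were used is not given in the sources used here, and depth is unknown. The lists held 30000 regions (pooled), 30000 (replicate 2), 29534 (replicate 3) and 1112 (reproducible).

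Gene positions came from Ensembl WBcel235, release 115, which lists 346 nuclear snoRNA genes, and sequence from RefSeq WBcel235. Summits were start plus the deposited offset and were matched between lists within 100 bp. Each member was assigned to its nearest snoRNA gene. Named regions were the 20 strongest, the strongest per chromosome, side and place, the 3 weakest reproducible and 3 strongest others, and the 3 highest and lowest replicate ratios among reproducible members. The members and lists were chosen with earlier results of these data known. No test was run: there is 1 group, and 95% intervals (Clopper-Pearson, exact) take in only the error of counting; neighbouring regions are not independent. Alternatives were other windows, match distances, flanks and subsets. Python 3.11.15, numpy 2.4.6 and scipy 1.17.1 were used, and the counting was tested on simulated data.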

Additional observations from a re-analysis of the deposited data

How the results depend on the processing

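The 10 summary values were recomputed under other settings, which gave 95 pairs of a value and a setting. In 71 of these pairs the value moved by less than its interval, its spread or, for counts, a factor of 1.5. The member count was 152 with a 200 bp window and 382 with a 1000 bp window, and in the same order the reproducible share was 35.5% and 18.8% and the share matched in both replicates was 53.3% and 37.2%. The B box share was 15.8% with the 200 bp window, and also 15.8% when the word was sought within 100 bp of the summit, while the intronic share was 31.2% with the 1000 bp window. With only the strongest member per cluster of snoRNA genes, 31.9% were reproducible, 53.8% matched in both replicates and 65.9% upstream. Matching summits within 50 or 200 bp gave 30.4% or 57.5% matched in both. Counting only hosts on the snoRNA strand gave 28.8% intronic members. Over the reproducible members alone the median signal was 273, 100% were matched, 87.9% upstream and 46.6% intronic, 36.2% held the B box word, and 60 genes had a member; the log2 ratio of the median signal of intronic to intergenic members turned from -0.09 to 0.31, and the cause was not tested. The median signal ran from 28.1 to 36.1 when 1 replicate list stood in for the pooled list. Leaving out members beside a stronger region, chosen after seeing the data, moved no value past its spread. No paired analysis was possible because there is 1 group. Limits are the unknown depth, a single shared control and 2 replicates.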

Other observations

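The snoRNA genes with a reproducible member were shorter than the rest. Their median length was 100 bp, against 131.5 bp for genes with other members only and 132 bp for genes with none. Of 93 genes shorter than 100 bp, 30 had a reproducible member (32.3%, 22.9 to 42.7%), and of 253 longer ones also 30 did (11.9%, 8.15 to 16.5%). The median of the strongest signal was 406.1 over the 30 short genes and 201.6 over the 30 longer ones. Both short promoter words stood before 18 of the 93 short genes and 10 of the 253 longer ones. The exact C box word TGATGA followed by the D box word CTGA was found in 28 of the 346 genes, of which 6 had a reproducible member, and 54 of the other 318 did. The letters ACA stood within 6 bases of the 3′ end in 19 of 60 genes with a reproducible member, 23 of 130 with others and 38 of 156 with none.

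The word TAAACG was present near the summit (50 bp to each side) of 8 of the 58 reproducible members (13.8%, 6.15 to 25.4%), 5 of the 182 others and 2.86% of all nuclear regions. The 8 were D1046.6, H09I01.2, C10C6.8, F32E10.10, K11C4.6, Y71D11A.7, C14C10.8 and D2021.6. At 6 of them it read ATAAACG, and its 5 starts upstream on the gene strand lay from -103 to -72 bp. The shorter word ATAAA from -120 to -61 bp stood before 9 of 60 genes with a reproducible member, 15 of 130 with others, 17 of 156 with none and 17.3% of protein-coding genes. GAGAG lay at 31% of reproducible members, 21.4% of the others and 42.1% of all reproducible regions.

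Words of 8 bases were ranked on chromosomes I, III and V by the excess of their share at the 123 members over all nuclear regions there. They were then counted at the 117 members of II, IV and X. GGTCGAAC, whose reverse complement is part of the B box word, lay at 6 of 123 members and at 3 of 117 (2.56%), against 0.203% of the 14813 regions of II, IV and X. The word TGGGAAAA lay at 7 of 123 and at 0 of 117, against 1.34% of all nuclear regions of I, III and V and 1.41% of those of II, IV and X.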
